A study of Homo sapiens with 6 samples.

Results

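Interferon-stimulated genes and the factors that control them were followed in cells labelled Huh7, a human hepatocellular carcinoma line, by RNA sequencing. The 37 genes were chosen by name as members of the interferon response, out of 58233 genes listed in each library, and each name matched 1 gene. Their 276 listed transcripts were added up per gene. Of the 6 libraries, 3 came from cells transfected with an empty plasmid (control, replicates 1 to 3) and 3 from cells transfected with a plasmid that overexpresses TP53TG1, a long noncoding RNA gene (replicates 1 to 3). All 6 thus come from cells that received plasmid DNA, and no untransfected cells were analysed here. The labels give no dose, no time after transfection and no statement that replicates were separate cultures, and p-values therefore describe only how these libraries spread, which may be technical. Values were taken as FPKM, fragments counted per length of transcript and per size of library, although the sources name no unit. In such bulk RNA, fewer cells that express a gene and less RNA per cell cannot be told apart.

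Cells sense foreign nucleic acid through receptors such as RIG-I (the product of DDX58), MDA5 (IFIH1) and cGAS, which act through adaptor proteins and kinases on the transcription factors IRF3 and IRF7. These switch on type I and type III interferon genes. Secreted interferon binds receptors that signal through the kinases JAK1 and TYK2. STAT2 and IRF9 then act in a complex, ISGF3, that binds a promoter element called the ISRE and induces a large set of stimulated genes. Many of their products block steps of viral replication, and others, such as USP18, dampen the response. Liver cells and lines derived from them are a common system for this response because hepatitis viruses meet it there.

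The transfected gene was checked first. Controls 1 to 3 had TP53TG1 at 10.6, 5.25 and 6.15 FPKM, and the TP53TG1 libraries 1 to 3 had it at 69.8, 134 and 70.5 FPKM. The groups did not overlap, and the limma log2 fold change was 3.46 (SE 0.381, Benjamini-Hochberg adjusted p = 0.0573), which did not pass. It passed with median-of-ratios scaling, explained below (adjusted p = 0.0465), with a minimum mean of 5 FPKM (adjusted p = 0.0417) and with the replicate number as a block together with that scaling (adjusted p = 0.0106). With the block alone the adjusted p was 8.97e-22, from a fit that took no account of the gene's own spread. When a library was left out the log2 fold change was 3.15 to 3.72 and the adjusted p 0.12 to 0.504. Markers of liver and other cells were read beside the members. Of 8 leukocyte markers, 2 reached a mean of 1 FPKM, with a sum of 33.2 to 64.9 FPKM in controls and 47.2 to 66.2 FPKM with TP53TG1. CD68 made up nearly all of that sum, while MS4A1 and CLEC4C, which mark B cells and plasmacytoid dendritic cells, were listed at 0 throughout. The 8 hepatocyte markers summed to 34.3 to 39.3 FPKM in controls and 15.2 to 37.6 FPKM with TP53TG1, and ALB, the albumin gene that defines hepatocytes, was at 0.53 to 1.22 FPKM. Of these 8, 5 reached a mean of 1 FPKM, and the highest value of any of them in a library was 20.9 FPKM. The 6 stromal and endothelial markers summed to 9.39 to 10.7 FPKM in controls and 11.3 to 19.4 FPKM with TP53TG1. The 5 intestinal epithelial markers summed to 180 to 346 FPKM in controls and 92.1 to 157 FPKM with TP53TG1. In every library this sum lay above that of the hepatocyte markers. The level of ALB and the higher intestinal sum thus do not match the hepatocyte origin that the label Huh7 implies. Other hepatocyte markers were expressed, the sums cover different genes, and no reference profile of Huh7 was compared. The identity of the cells was not tested. Of the 5 intestinal markers, all tested, 4 (KRT20, VIL1, CDH17 and LGALS4) were lower with an unadjusted limma p under 0.05. Over all genes tested, 246 of 12853 were lower at that threshold. None of the 5 markers had an adjusted p under 0.05. The part of these marker levels in the results below was not tested.

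Both libraries numbered 1 stood apart, and among the members the difference followed transcript length. Relative to replicates 2 and 3 of the same group, replicate 1 tended to lower values the longer a member's transcripts were, with exceptions in both groups. In controls DDX58, IFIH1 and IFIT5, all over 3000 nt, were not lower in replicate 1, and with TP53TG1 IRF1, IRF9 and IFI44, all under 1500 nt, were not higher. OAS3, whose transcripts average 6204 nt, was at 5.31 FPKM in control 1 against 29.5 and 21.9 FPKM in controls 2 and 3. With TP53TG1 it was at 0.65 FPKM in replicate 1 against 31.1 and 36.3 FPKM in replicates 2 and 3. IFI27, at 517 nt, ran the other way, with 188 FPKM in control 1 against 71.5 and 81.0 FPKM, and 141 FPKM in TP53TG1 replicate 1 against 74.6 and 67.9 FPKM. Across the 27 members tested, the log2 ratio of replicate 1 to the mean of replicates 2 and 3 had a Pearson r of -0.753 with log2 length in the controls and -0.717 with TP53TG1 (Spearman -0.772 in both). Over all 12848 tested genes with a length the values were -0.425 and -0.470. These points are genes of the same libraries and share their depth, so no p is given. The median log2 ratio of the 11 members under 1500 nt was 1.01 in controls and 0.28 with TP53TG1, and of the 6 members over 3000 nt -0.33 and -0.83. The counts of called and separated members, and the members described in full, are therefore given with and without these libraries.

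**Figure D1:**
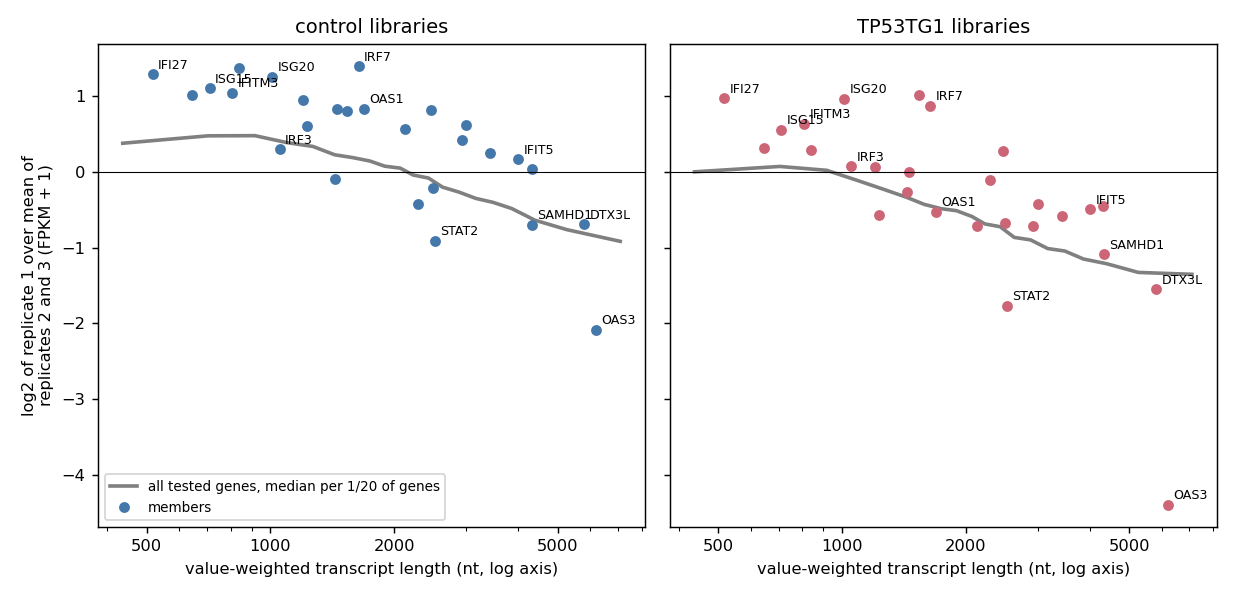
For each of the 27 tested members (points), the log2 ratio of FPKM + 1 in replicate 1 to the mean of replicates 2 and 3 is plotted against value-weighted transcript length in nt on a log axis, for controls (left) and TP53TG1 (right), with the median of all tested genes per length bin as a grey line. Points fall with length in both groups, from IFI27 at 1.29 and 0.97 to OAS3 at -2.08 and -4.39.

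Levels of the 37 members spanned the range from 0 to 412 FPKM, the highest being IFITM3 in control 1. Means over the 6 libraries were 100 FPKM or more for 3 members, 10 to 100 for 8, 1 to 10 for 16, and under 1 FPKM for 10. The 4 highest, IFITM3, IRF3, IFI27 and OAS1, held 66.7% to 73.7% of the summed FPKM of all members in a library. That sum was 0.0978% to 0.134% of all FPKM in the controls and 0.107% to 0.146% with TP53TG1, so the groups overlapped. Stimulated genes stood at both ends. IFI27, OAS1 and ISG15 had means of 104, 72.8 and 63.0 FPKM, while several others were at the bottom. RSAD2, which encodes the antiviral enzyme viperin, was listed at 0 in all 6 libraries. CXCL10, an interferon-induced chemokine gene, was at 0.20 FPKM in control 1, 0.04 FPKM in TP53TG1 replicate 3 and listed at 0 in the other 4. IFIT1, whose product binds viral RNA lacking host cap marks, lay between 0.16 and 0.71 FPKM, with overlap between the groups. MX1, a GTPase that traps viral nucleocapsids, was at 0.42, 0.36 and 0.50 FPKM in controls and 0.17, 0.25 and 0.29 FPKM with TP53TG1. All 3 TP53TG1 libraries of MX1 lay below all 3 controls, as for 8.34% of 27206 genes with no filter on levels. After median-of-ratios scaling they did so narrowly, with 0.288 in TP53TG1 replicate 3 against 0.303 in control 2. The share of all genes at such levels was not computed on that scale.

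**Figure D2:**
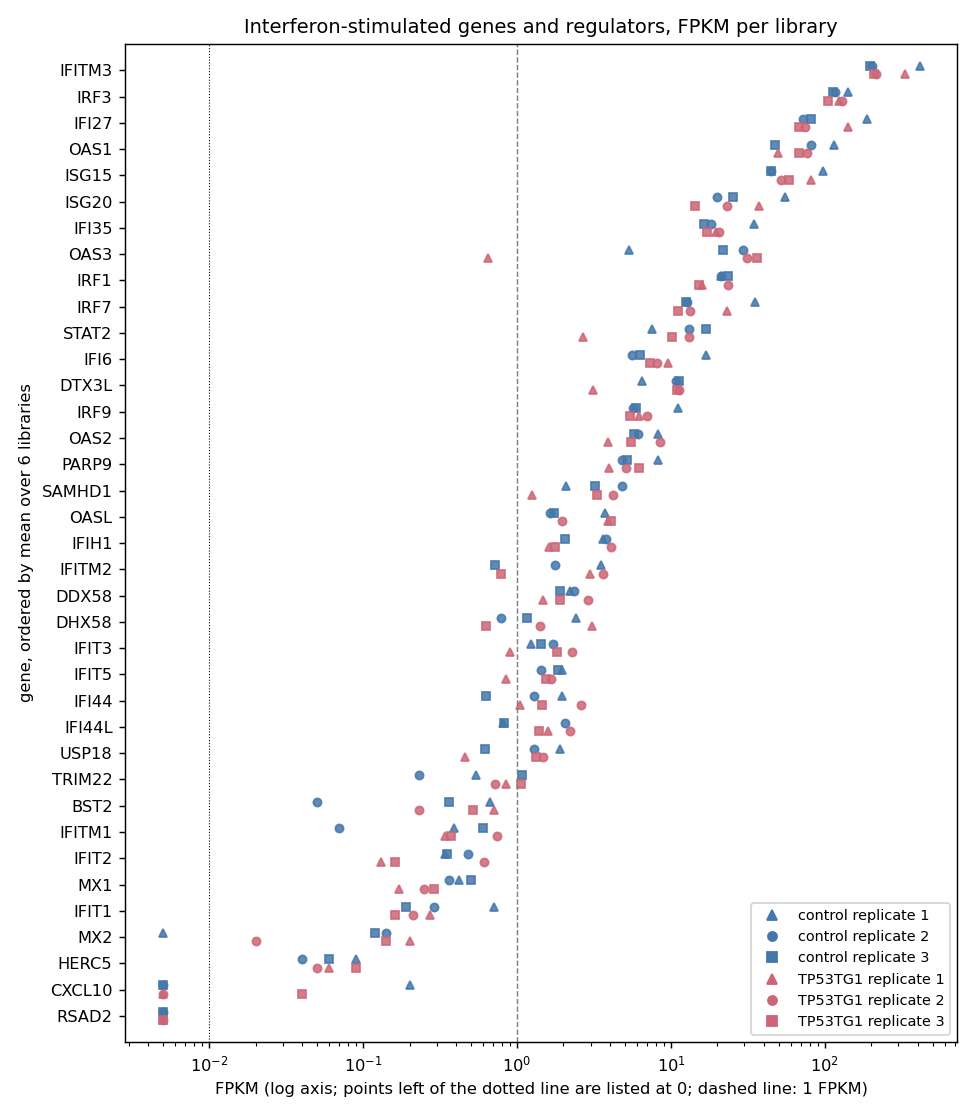
FPKM of all 37 members in each library on a log axis, ordered by mean, with controls in blue, TP53TG1 in red and a marker shape per replicate number; points left of the dotted line are listed at 0 and the dashed line is 1 FPKM. Blue and red points overlap for every tested member. Those of MX1, below 1 FPKM, do not, with red lower, as for 8.34% of 27206 genes with no filter. The triangles (replicate 1) lie at the edge for OAS3 and IFI27.

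The pathway above the members was expressed unevenly. The list held 9 interferon ligand genes, with IFNA1 as its only alpha gene. Of these 9, 8 were at 0 in all 6 libraries, IFNB1 and the 3 listed IFNL genes among them. IFNE, an epithelial type I interferon gene, lay between 0.28 and 0.95 FPKM. Other interferon alpha genes were not read. All 6 receptor genes passed the filter of a mean of 1 FPKM. IFNAR1 and IFNAR2, the type I interferon receptor chains, lay between 3.36 and 19.5 and between 11.9 and 23.1 FPKM. IFNLR1, the chain specific to type III interferon, lay lower at 1.13 to 4.41 FPKM, and IL10RB, its partner, at 15.1 to 24.5 FPKM. IFNGR1 lay at 18.3 to 47.7 FPKM and IFNGR2 at 29.6 to 51.8 FPKM. The kinase gene TYK2 lay at 28.6 to 59.5 FPKM, JAK1 at 9.26 to 37.0 FPKM and JAK2 at 0.37 to 1.59 FPKM.

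Among sensors and effectors of the wider pathway, values under 0.3 FPKM were listed for MB21D1, which encodes the DNA sensor cGAS (0 to 0.18 FPKM), XAF1 (0 to 0.28 FPKM) and RNF135, a cofactor of RIG-I (0 to 0.03 FPKM). TMEM173, which encodes the adaptor STING downstream of cGAS, was at 10.7 to 19.9 FPKM.

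**Figure D3:**
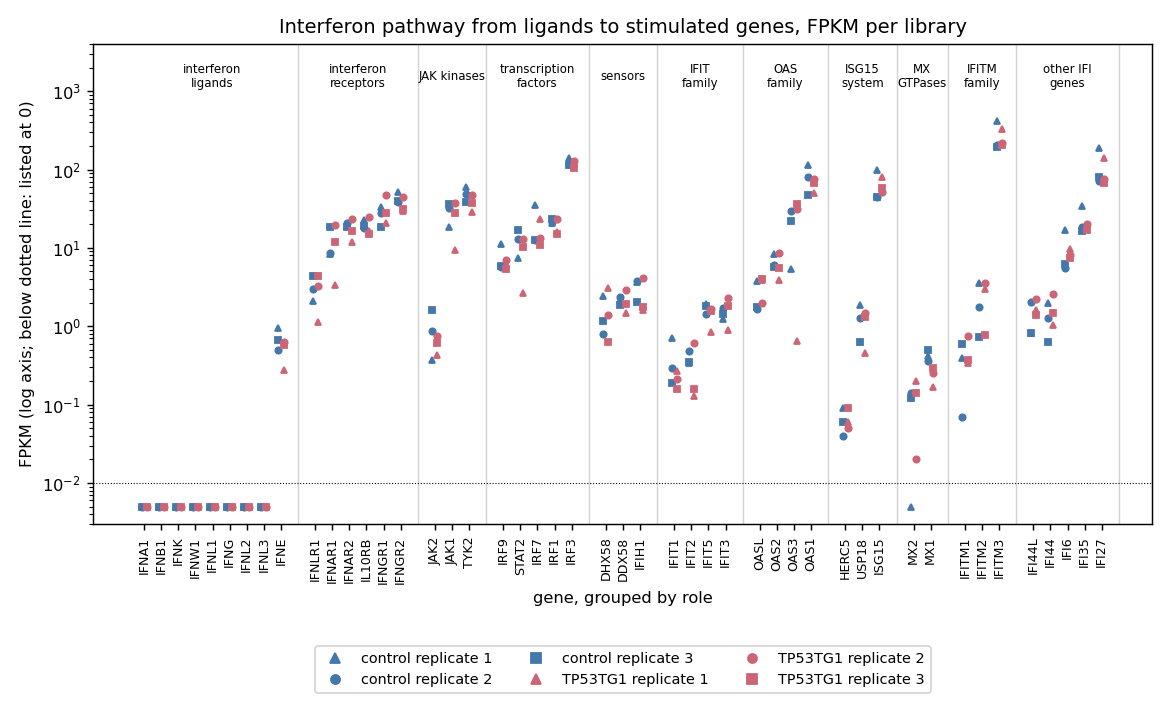
FPKM per library on a log axis for genes ordered by their place in the interferon pathway, from ligands (left) through receptors, kinases and transcription factors to stimulated genes (right), with controls in blue and TP53TG1 in red. Of the ligands 8 lie below the dotted line (listed at 0), while the 6 receptor genes lie at 1.13 FPKM or more in every library.

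Promoter sequences were read to see whether members at high and low levels carry the same element. RefSeq promoter windows (GRCh38.p14) were found for 27 of the 37 members, and not for DHX58, IRF3, IRF7, IFIT2, OAS2, OASL, USP18, MX2, TRIM22 and IFITM2. In the 250 bases before the annotated start, the ISRE core, searched as GAAANNGAAA on both strands with overlapping matches counted, was found in 16 of 27 members (59.3%). It was found in 23 of 72 other pathway genes (31.9%) and in 1061 of 35116 windows of all genes (3.02%). Among members with a mean of at least 10 FPKM 5 of 9 held it, and among those under 1 FPKM 5 of 7. Pairs of GAAA words with 1 base between them were not counted, as in the windows of OAS1, IFI35, DDX58 and RSAD2. These shares therefore hold for the searched spacing only. The GAS core, an element of the interferon gamma response searched as TTCNNNGAA, was in 7 of 27 members (25.9%) and 6.57% of all windows. A match is a match of letters and not a measured binding site. The windows below have the most ISRE cores among members at 10 FPKM or more and among those under 1 FPKM, 4 each with ties taken by name. As they were picked for holding the element, they show where it stands and say nothing about its relation to level. IRF1, STAT2, OAS1 and IFI35, at 10 FPKM or more, and MX1 and RSAD2, under 1 FPKM, had no match. ISRE cores are in capitals, and each sequence is on the strand of its gene.

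The first 4 precede members at 10 FPKM or more. ISG15 (chr1:1013247-1013496, plus strand) has cores that begin at -113 and -107 from the start, IFITM3 (chr11:320861-321110, minus strand) at -52 and -35, IFI27 (chr14:94110486-94110735, plus strand) at -108 and -95, and OAS3 (chr12:112938224-112938473, plus strand) at -143 and -12.
ISG15: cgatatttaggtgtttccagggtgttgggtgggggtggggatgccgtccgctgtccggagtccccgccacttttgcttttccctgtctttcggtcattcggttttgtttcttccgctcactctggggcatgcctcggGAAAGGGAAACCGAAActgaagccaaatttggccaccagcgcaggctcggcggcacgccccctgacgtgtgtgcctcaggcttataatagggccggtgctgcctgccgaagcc
IFITM3: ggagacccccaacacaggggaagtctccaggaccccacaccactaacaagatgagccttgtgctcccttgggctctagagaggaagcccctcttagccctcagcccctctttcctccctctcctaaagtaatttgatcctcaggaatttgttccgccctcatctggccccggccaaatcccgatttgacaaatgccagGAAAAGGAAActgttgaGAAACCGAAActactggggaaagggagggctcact
IFI27: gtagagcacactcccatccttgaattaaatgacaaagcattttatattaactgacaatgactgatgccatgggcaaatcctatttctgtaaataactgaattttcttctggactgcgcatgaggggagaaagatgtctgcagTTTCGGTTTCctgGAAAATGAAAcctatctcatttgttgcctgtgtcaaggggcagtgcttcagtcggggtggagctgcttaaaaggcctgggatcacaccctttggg
OAS3: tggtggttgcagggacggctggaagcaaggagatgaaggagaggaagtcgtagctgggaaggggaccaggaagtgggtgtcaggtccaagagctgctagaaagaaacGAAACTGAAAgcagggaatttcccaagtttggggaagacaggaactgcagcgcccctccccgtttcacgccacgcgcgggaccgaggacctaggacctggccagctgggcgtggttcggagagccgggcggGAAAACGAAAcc

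The other 4 precede members under 1 FPKM. HERC5 (chr4:88456869-88457118, plus strand) has cores at -125, -119 and -74, BST2 (chr19:17405631-17405880, minus strand) at -130 and -124, IFIT1 (chr10:89392373-89392622, plus strand) at -116 and -103, and CXCL10 (chr4:76023498-76023747, minus strand) at -221. In HERC5 and IFIT1, and at -108 in IFI27 above, the core reads on the opposite strand, so the capitals show its reverse complement.
HERC5: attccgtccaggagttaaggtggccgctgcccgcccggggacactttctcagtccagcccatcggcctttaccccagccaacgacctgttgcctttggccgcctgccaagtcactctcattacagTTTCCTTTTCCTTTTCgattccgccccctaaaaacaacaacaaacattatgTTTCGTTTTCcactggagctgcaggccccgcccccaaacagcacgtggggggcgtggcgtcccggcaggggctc
BST2: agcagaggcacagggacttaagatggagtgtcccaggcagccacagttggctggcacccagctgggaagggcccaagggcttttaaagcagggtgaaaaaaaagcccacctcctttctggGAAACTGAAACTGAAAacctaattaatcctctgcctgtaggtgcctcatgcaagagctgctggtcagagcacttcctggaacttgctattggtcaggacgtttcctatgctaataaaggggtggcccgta
IFIT1: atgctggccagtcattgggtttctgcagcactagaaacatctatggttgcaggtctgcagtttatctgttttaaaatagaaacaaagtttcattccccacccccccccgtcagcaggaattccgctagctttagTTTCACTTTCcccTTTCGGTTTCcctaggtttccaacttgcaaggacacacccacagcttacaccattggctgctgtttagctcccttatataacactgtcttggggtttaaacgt
CXCL10: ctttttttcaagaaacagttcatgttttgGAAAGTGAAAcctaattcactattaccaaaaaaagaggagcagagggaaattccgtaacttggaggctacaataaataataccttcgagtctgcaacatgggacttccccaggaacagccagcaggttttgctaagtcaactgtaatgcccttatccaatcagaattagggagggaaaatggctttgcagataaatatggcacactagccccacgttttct

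In the comparison of TP53TG1 with control, no member passed. The limma test on log2(FPKM + 1) took in every gene averaging 1 FPKM or more over the 6 libraries, which 27 of the 37 members did. After Benjamini-Hochberg adjustment 0 of 27 were called, against 0.00778% of all 12853 genes tested, and the adjusted p of the members ran from 0.748 to 0.976. At an unadjusted p under 0.05 there were again 0 of 27, against 2.35% of all genes. Log2 fold changes of the members ran from -0.63 for STAT2 to 0.36 for OASL, with standard errors from 0.242 to 1.13. Among these 27 the groups did not overlap for 0 members higher and 0 lower, against 0.428% and 13.3% of all genes. With no filter, 36 members had a value, and the groups did not overlap for 0 higher and 1 lower, MX1, against 0.787% and 8.34% of 27206 genes. In that fit the log2 fold change of MX1 was -0.21 (SE 0.0902, adjusted p = 0.799), on a scale that understates changes at such low levels. The result of 0 called members was the same with the replicate number as a block, where 1.49% of all genes were called and the lowest adjusted p of a member was 0.476. It was also 0 with median-of-ratios scaling (0.0156% of all genes), with the block and that scaling together (0.0467%) and without the libraries numbered 1 (0.00778%).

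On the deposited scale most genes were estimated lower with TP53TG1, and the members less so. Their median log2 fold change was -0.19, against -0.35 for all tested genes, a difference of 0.16, and 24 of 27 lay above the median of all genes. With median-of-ratios scaling, which divides each library by a factor so that the typical gene is level, the median of all genes was -0.004 and that of the members 0.16. That factor was 0.601 for TP53TG1 replicate 1 and 1.01 to 1.19 for the other libraries. Before scaling, 93.8% of all genes were lower with TP53TG1 between libraries numbered 1, against 66.7% and 68.7% for numbers 2 and 3. On the deposited scale 7 members were above 0 and 20 below, and on the scaled values 23 were above and 4 below (STAT2, OAS3, IFIH1 and IFIT5). The difference between the medians was 0.26 without the libraries numbered 1, 0.43 without control replicate 1, 0.40 without TP53TG1 replicate 3, 0.26 without TP53TG1 replicate 2 and 0.05 without TP53TG1 replicate 1. With no filter on low values it was 0.02, with 19 of 36 members above the median. No test of the list was run. Between libraries of the same number, scaled values were higher with TP53TG1 for 17 of 27 members in pair 1, 26 in pair 2 and 21 in pair 3, against 49.6%, 47.3% and 49.6% of all genes.

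**Figure D4:**
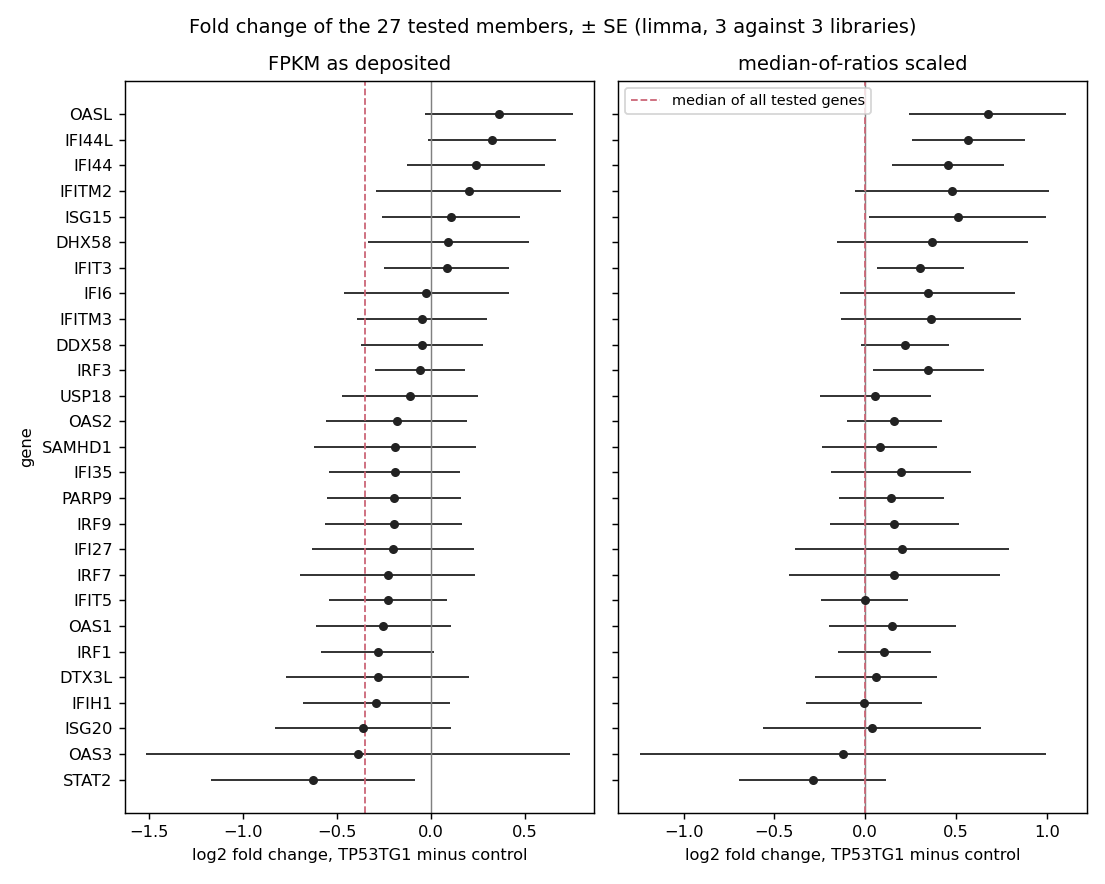
Log2 fold change (TP53TG1 minus control) of the 27 tested members with its SE from limma, 3 against 3 libraries, on FPKM as deposited (left) and after median-of-ratios scaling (right), with the median of all tested genes as a dashed line. Most points lie right of the dashed line, 24 of 27 in each panel, with bars that reach it for most genes.

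Among the transcription factors, IRF3, the factor that IFN-inducing sensors activate by phosphorylation, was the most abundant. IRF3 (chromosome 19, 49659569 to 49665875) was at 141, 116 and 113 FPKM in controls 1 to 3 and at 122.6, 128 and 104 FPKM with TP53TG1. The groups overlapped within a narrow range. For IRF3 the log2 difference came to -0.06 (SE 0.242, adjusted p = 0.894), 0.35 when scaled as above and 0.01 without the libraries numbered 1. IRF7, which amplifies the interferon loop and is itself induced, was at 34.9, 12.8 and 12.5 FPKM in controls and 23.1, 13.3 and 11.0 FPKM with TP53TG1. Replicate 1 was highest in both groups. For IRF7 the log2 difference came to -0.23 (SE 0.466, adjusted p = 0.797), 0.16 when scaled and -0.06 without the libraries numbered 1. IRF1, a factor induced by interferon gamma, was at 21.0, 21.2 and 23.6 FPKM in controls and 15.9, 23.3 and 15.2 FPKM with TP53TG1. TP53TG1 replicate 2 lay among the controls and the other 2 below them. For IRF1 the log2 difference came to -0.28 (SE 0.301, adjusted p = 0.748), 0.11 when scaled and -0.23 without the libraries numbered 1.

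STAT2 (chromosome 12, 56341597 to 56360155) was the member with the smallest p. It was at 7.5, 13.1 and 16.9 FPKM in controls and 2.69, 13.0 and 10.2 FPKM with TP53TG1. Replicate 1 was lowest in each group, and the groups overlapped. For STAT2 the log2 difference came to -0.63 (SE 0.543, adjusted p = 0.748), -0.29 when scaled and -0.34 without the libraries numbered 1. It was -0.04 without TP53TG1 replicate 1, -1.0 without TP53TG1 replicate 2, -0.93 without control replicate 1 and -0.39 without control replicate 3. IRF9, the DNA-binding subunit of ISGF3, lay between 5.43 and 11.1 FPKM over the 6 libraries and did not pass.

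The sensors were low and overlapped between groups. IFIH1 was at 3.64, 3.77 and 2.05 FPKM in controls and 1.62, 4.09 and 1.77 FPKM with TP53TG1. For IFIH1 the log2 difference came to -0.29 (SE 0.393, adjusted p = 0.751), -0.01 when scaled and -0.02 without the libraries numbered 1. DDX58 lay between 1.48 and 2.87 FPKM, and DHX58, which encodes the regulator LGP2, between 0.63 and 3.08 FPKM with replicate 1 highest in both groups. Neither passed.

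The OAS genes encode enzymes that make 2′-5′ linked oligoadenylates and thereby activate RNase L, except OASL, which lacks that activity. OAS1 was at 115, 80.7 and 47.4 FPKM in controls and 49.7, 76.1 and 68.1 FPKM with TP53TG1. The controls spread more widely than the TP53TG1 libraries, and the groups overlapped. For OAS1 the log2 difference came to -0.25 (SE 0.361, adjusted p = 0.754), 0.15 when scaled and 0.22 without the libraries numbered 1. OAS3 had the values given above, with both libraries numbered 1 far below the other 4. For OAS3 the log2 difference came to -0.39 (SE 1.13, adjusted p = 0.849), -0.12 when scaled and 0.39 without the libraries numbered 1. OASL was at 3.75, 1.64 and 1.74 FPKM in controls and 3.87, 1.97 and 4.06 FPKM with TP53TG1. Control 1 lay among the TP53TG1 libraries. The log2 difference of OASL, 0.36 (SE 0.393, adjusted p = 0.748), was the highest among the 27 tested members, and it was 0.67 when scaled and 0.53 without the libraries numbered 1. OAS2 lay between 3.90 and 8.5 FPKM and did not pass.

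ISG15 encodes a ubiquitin-like protein that is conjugated to other proteins by enzymes such as HERC5 and removed by USP18. It was at 97.3, 44.7 and 44.7 FPKM in controls and 81.2, 51.8 and 58.0 FPKM with TP53TG1. Replicate 1 was highest in each group, and TP53TG1 replicates 2 and 3 lay above controls 2 and 3. For ISG15 the log2 difference came to 0.11 (SE 0.367, adjusted p = 0.873), 0.51 when scaled and 0.29 without the libraries numbered 1. HERC5 lay at 0.04 to 0.09 FPKM and USP18 at 0.46 to 1.89 FPKM. ISG20, an exonuclease gene, was at 54.9, 19.8 and 25.1 FPKM in controls and 37.5, 23.2 and 14.3 FPKM with TP53TG1. Replicate 1 was again highest in each group. For ISG20 the log2 difference came to -0.36 (SE 0.468, adjusted p = 0.748), 0.04 when scaled and -0.27 without the libraries numbered 1.

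With the block and scaling together, 3 members were higher at an unadjusted p under 0.05 and 0 lower, against 3.17% and 2.14% of all genes. They were ISG15, OASL and IFITM3, whose adjusted p by limma was 0.818, 0.890 and 0.890. Without the libraries numbered 1, groups of 2 did not overlap for 8 members higher and 1 lower, against 6.58% and 35.5% of all genes. The 8 were IFIT3, OAS3, OASL, ISG15, USP18, IFITM3, IFI6 and IFI44, and the 1 lower was STAT2.

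The IFITM genes encode small membrane proteins that hold back virus entry, and lie within 19.9 kb on chromosome 11 (307631 to 327537). IFITM3 was at 412, 203 and 196 FPKM in controls and 330, 216 and 208 FPKM with TP53TG1. Replicate 1 was highest in each group. For IFITM3 the log2 difference came to -0.05 (SE 0.348, adjusted p = 0.940), 0.36 when scaled and 0.09 without the libraries numbered 1. In the same cluster IFITM2 lay between 0.72 and 3.60 FPKM and IFITM1 between 0.07 and 0.74 FPKM. The 3 genes are near-identical in part, and the annotated spans of IFITM1 and IFITM2 overlap on the same strand, so how fragments were divided among them is uncertain.

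The other IFI genes carry the name of interferon induction. IFI27, a mitochondrial membrane protein gene, had the values given above, with a log2 fold change of -0.20 (SE 0.431, adjusted p = 0.804), 0.20 when scaled and -0.10 without the libraries numbered 1. IFI35 was at 34.5, 18.3 and 16.5 FPKM in controls and 19.7, 20.5 and 17.0 FPKM with TP53TG1. All libraries but control 1 lay close together. For IFI35 the log2 difference came to -0.19 (SE 0.349, adjusted p = 0.781), 0.20 when scaled and 0.10 without the libraries numbered 1. IFI44L was at 0.81, 2.05 and 0.82 FPKM in controls and 1.59, 2.20 and 1.39 FPKM with TP53TG1, with control 2 among the latter. For IFI44L the log2 difference came to 0.33 (SE 0.342, adjusted p = 0.748), 0.57 when scaled and 0.23 without the libraries numbered 1. IFI44, its neighbour on chromosome 1, was at 1.96, 1.28 and 0.63 FPKM in controls and 1.05, 2.60 and 1.46 FPKM with TP53TG1. The groups overlapped, with a log2 difference of 0.24 for IFI44 (SE 0.368, adjusted p = 0.759), 0.45 when scaled and 0.63 without the libraries numbered 1. IFI6, which inhibits apoptosis, lay between 5.57 and 16.8 FPKM and did not pass.

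The 4 IFIT genes, some of whose products bind viral RNA, lie within 137 kb on chromosome 10 (89283694 to 89421001) and were low. IFIT5 was at 1.95, 1.42 and 1.83 FPKM in controls and 0.85, 1.65 and 1.55 FPKM with TP53TG1. TP53TG1 replicate 1 was lowest. For IFIT5 the log2 difference came to -0.23 (SE 0.314, adjusted p = 0.751), -0.003 when scaled and -0.01 without the libraries numbered 1. IFIT3 was at 1.23, 1.72 and 1.43 FPKM in controls and 0.90, 2.27 and 1.82 FPKM with TP53TG1. After median-of-ratios scaling it was the only tested member whose groups did not overlap, at 1.11, 1.45 and 1.21 against 1.498, 2.06 and 1.81, where 2.01% of all genes were separated in that direction and 2.05% in the other. For IFIT3 the scaled log2 difference came to 0.30 (SE 0.242, adjusted p = 0.9999). IFIT2 lay between 0.13 and 0.61 FPKM.

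PARP9 and DTX3L encode partner proteins, the second a ubiquitin ligase, and start head to head on chromosome 3, with annotated 5′ ends that overlap by 340 bases. Whether reads were assigned by strand is not given in the sources used here, so reads in the overlap cannot be told apart. DTX3L was at 6.46, 10.7 and 11.3 FPKM in controls and 3.11, 11.2 and 10.9 FPKM with TP53TG1. Replicate 1 was lowest in each group. For DTX3L the log2 difference came to -0.28 (SE 0.487, adjusted p = 0.775), 0.06 when scaled and 0.00 without the libraries numbered 1. PARP9 lay between 3.96 and 8.20 FPKM. Of the remaining antiviral effectors, SAMHD1, which degrades nucleotides, lay between 1.25 and 4.82 FPKM, TRIM22 between 0.23 and 1.07, BST2, which encodes the virion-tethering protein tetherin, between 0.05 and 0.71, and MX2 between 0 and 0.20 FPKM. None of those tested passed.

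The transcripts behind the abundant members were compared as shares of each gene, with no test. ISG15 and IFITM3 each rested on 1 coding transcript, ENST00000379389 and ENST00000399808, with 99.9 ± 0.154% and 99.5 ± 0.646% of the gene's FPKM in controls and 99.8 ± 0.141% and 99.8 ± 0.174% with TP53TG1 (SD, n = 3 each). For OAS1, ENST00000452357 (1990 nt) held 52.4 ± 5.99% in controls and 54.0 ± 2.32% with TP53TG1 (SD, n = 3 each). For STAT2 the leading transcript was not annotated as coding: ENST00000556539, a processed transcript of 3278 nt, held 49.7 ± 23.2% and 55.8 ± 32.2%, and the coding ENST00000314128 13.3 ± 8.86% and 12.6 ± 11.1% (SD, n = 3 each). In control 1 and TP53TG1 replicate 1 the processed transcript held 76.3% and 92.9%, against 33.8% to 39.4% in the other libraries. The coding transcript held 3.47% and 0% there, against 15.8% to 20.9%. In IRF3 a processed transcript of 413 nt, ENST00000602190, had the largest mean share, 27.3 ± 7.26% and 28.7 ± 10.1% (SD, n = 3 each), while in both libraries numbered 1 a coding transcript had more. A gene's FPKM is thus not the level of coding RNA alone. The division between overlapping transcripts is an estimate by the authors' software, and it was not tested.

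Among 86 other genes of the pathway, 62 reached the mean of 1 FPKM and 0 passed, higher or lower, and the lowest unadjusted p was 0.0822. Their median log2 fold change was -0.21, 0.14 above that of all genes, and 48 of 62 lay above it. With no filter the direction turned, to a difference of -0.059 from all genes with 31 of 77 above it. On the deposited scale the groups did not overlap for 1 of these genes, NLRX1, a mitochondrial inhibitor of antiviral signalling, against 13.3% of all genes lower. It was at 11.8, 11.7 and 13.7 FPKM in controls and 5.07, 9.68 and 9.73 FPKM with TP53TG1. For NLRX1 the log2 difference came to -0.59 (SE 0.354, adjusted p = 0.748), and -0.23 when scaled. IRF2BP2, a corepressor that binds IRF2, had the smallest p, at 49.95, 57.4 and 55.5 FPKM in controls and 21.1, 53.5 and 31.7 FPKM with TP53TG1. TP53TG1 replicate 2 lay among the controls. For IRF2BP2 the log2 difference came to -0.70 (SE 0.356, adjusted p = 0.748). IRF2BP1 had a log2 fold change of -0.45, and DDX60, a helicase gene, -0.52. TRIM25, the ubiquitin ligase that acts on RIG-I, had -0.83, and MAVS, the mitochondrial adaptor of RIG-I and MDA5, -0.54, each with an adjusted p of 0.748. These folds are on the deposited scale, where the median of all tested genes was -0.35. When scaled, IRF2BP1 was at -0.06, TRIM25 at -0.44 and MAVS at -0.18. The most abundant were B2M, the light chain of MHC class I, at 1625 to 2704 FPKM, LGALS3BP at 270 to 466 FPKM and IFI30, a lysosomal thiol reductase gene, at 65.3 to 126 FPKM. None of these 3 passed.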

How the data were processed

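For each library the authors deposited a list of transcripts, each with a single number whose unit is unstated. These deposited values were taken as FPKM because they are not whole and the library totals differ (599081 to 890541). Coverage per base would look alike. Per the submitters' processing notes, HISAT2, StringTie and GRCh38.p10 were used. The sources used here do not give versions, the strand setting or the annotation release. Values were summed per gene, and blank symbols were filled from the other libraries by transcript ID. Positions and lengths came from GENCODE 29 (GRCh38), and a gene's length is the mean over its transcripts weighted by value. Read depth is unknown, so no counting interval was derived, and a gene at 0 is described as listed at 0.

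All 6 libraries entered 1 limma 3.58.1 fit (R 4.3.3; eBayes with trend) of TP53TG1 minus control on log2(FPKM + 1) for the 12853 genes averaging 1 FPKM or more, with Benjamini-Hochberg adjustment over all of them and a threshold of 0.05. Folds on this scale understate changes of low genes. The fit was also run on simulated data with independent noise and no library, length or replicate effect. That run does not show how the fit performs on these libraries. Exact two-sided permutation tests cannot go below 0.1 here. Members were given in full where their mean was at least 10 FPKM, with the 6 other tested members of smallest p, and of the other pathway genes receptors, kinases, the 6 of smallest p and the 3 highest. A single gene was left out of the list of other pathway genes and is not reported here. The members and lists were chosen with earlier results of these data known. Deviations from group means correlated at 0.710, 0.562 and 0.289 between libraries numbered 1, 2 and 3, and the pairing by number is taken from these data. Unlike numbers also correlated, at 0.400 for control 3 with TP53TG1 2 and 0.302 for control 2 with TP53TG1 3, both above the pair numbered 3. Alternatives were pseudocounts, filters, 2 scalings, the replicate block, no trend and leaving out libraries. Other steps ran in Python 3.11.15 (pandas 2.3.3).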

Additional observations from a re-analysis of the deposited data

How the results depend on the processing

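The count of 0 called members and of 0 called other pathway genes was the same under every alternative run. Over these the lowest adjusted p was 0.476 for a member and 0.269 for another pathway gene, both with the replicate block. The number of genes called over the whole table was 1. It was 0 with no filter, 2 with a mean of at least 5 FPKM, 2 with median-of-ratios scaling, 192 with the replicate block, 6 with replicate block and median-of-ratios scaling, and 0 to 1 when a library was left out, with 0 without control replicate 1 or control replicate 3. With TPM, TP53TG1 did not pass (limma adjusted p = 0.0548). The replicate block changed the call of TP53TG1, as did median-of-ratios scaling and the 5 FPKM filter, and of no member. In that fit limma took each gene's spread wholly from the trend over all genes, so its p-values do not reflect a gene's own spread.

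The median log2 fold change of the members relative to all genes was 0.157. It was 0.052 to 0.430 when a library was left out, and 0.017 with no filter. For the other pathway genes it was 0.139, and 0.16 with pseudocount 0.1, -0.059 with no filter, 0.114 with a mean of at least 5 FPKM, 0.146 with TPM, 0.173 without the libraries numbered 1, and 0.132 to 0.187 when a library was left out.

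With median-of-ratios scaling, with or without the replicate block, the log2 fold change changed sign for 16 of the 27 tested members, and among those described in full for IRF1 (0.11), IRF3 (0.35), IRF7 (0.16), OAS1 (0.15), ISG20 (0.04), IFITM3 (0.36), IFI27 (0.20), IFI35 (0.20) and DTX3L (0.06). With TPM it changed for 12 of 27, among them IRF3 (0.21), IRF7 (0.02), OAS1 (0.01), IFITM3 (0.22), IFI27 (0.06) and IFI35 (0.06). Without the libraries numbered 1 it changed for 12 of 27, among them IRF3 (0.01), OAS1 (0.22), OAS3 (0.39), IFITM3 (0.09), IFI35 (0.10) and DTX3L (0.00). When a library was left out it ran from -0.12 to 0.04 for IRF3, -0.52 to 0.24 for IRF7, -0.59 to 0.04 for OAS1, -1.17 to 1.08 for OAS3, -0.08 to 0.47 for ISG15, -0.69 to 0.06 for ISG20, -0.26 to 0.30 for IFITM3, -0.53 to 0.23 for IFI27, -0.39 to 0.12 for IFI35 and -0.55 to 0.23 for DTX3L. Without a change of sign it ran from -1.0 to -0.04 for STAT2, -0.60 to -0.12 for IFIH1 and 0.01 to 0.45 for IFI44. Scaling by construction removes the general shift of -0.35, which was -0.12 without TP53TG1 replicate 1. For the other alternatives the cause was not tested.

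The median SE of the members was 0.368 in the fit without block or scaling, and smaller with both for genes such as ISG15 (0.142) and IFITM3 (0.141). The detectable size of change was not computed. The 10 members under 1 FPKM were tested only with no filter, apart from RSAD2, which is listed at 0.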
